A study of Triticum aestivum with 6 samples.

Results

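XTH, GLU1A and ha1 are wheat genes that encode a cell wall-remodelling enzyme, a beta-glucosidase and a proton pump. They were measured here by 6 probe sets out of 61179 tested on the Affymetrix wheat GeneChip, a 1-colour array on which each probe set is a group of short probes for one transcript. Of these, 5 probe sets were paired with exactly 1 of the 3 genes in the platform's annotation (1 for XTH, 1 for GLU1A and 3 for ha1), and 1 more was taken in because it carries the same cluster number as the GLU1A probe set. The 3 genes are 3 of 771 that the annotation pairs with a tested probe set. They were chosen by their differences between the temperatures in these same arrays, all of them lower at 13 °C, so their values below are a description. How many passed the fit across all probe sets is given once, beside the share of the whole array, and supports nothing.

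The arrays held RNA from embryos of the bread wheat cultivar AC Domain, taken 48 h after mature seeds began to take up water. The seeds had developed either at 13 °C (3 arrays) or at 28 °C (3 arrays). Until flowering the mother plants of both groups were kept alike, at day and night temperatures of 22 °C and 18 °C under 16 h light and 8 h dark. The labels call the arrays biological replicates but give no source plant, chamber or seed lot for any of them, so part of the spread between them may be technical. The comparison addresses how the embryo's transcripts after imbibition differ with the temperature at which the seed developed.

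A plant cell grows when its wall yields to the pressure inside. The plasma membrane H+-ATPase, encoded by genes such as ha1, pumps protons into the wall space, which makes the wall more extensible and also energises uptake of ions and sugars. Xyloglucan endotransglucosylase/hydrolases (XTH) cut and rejoin xyloglucan, a glucan that coats cellulose, although the primary walls of grasses hold little of it. GLU1A (also TaGlu1a) belongs to the beta-glucosidases of young wheat plants that cleave stored benzoxazinoid glucosides, which sets free toxic defence compounds.

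Seeds developed at 13 °C gave embryos with lower signals than seeds developed at 28 °C for all 3 genes, but by very different amounts. On the annotated probe sets, GLU1A was an estimated 96.2-fold lower, counted from a guide to background, XTH 6.47-fold lower and ha1 1.42-fold to 1.53-fold lower. The second probe set of the GLU1A cluster was 1.61-fold lower, far less than the annotated one. Every value at 13 °C lay below every value at 28 °C on each of the 6 probe sets, as was the case for 18.7% of all tested probe sets, with groups apart in either direction for 44.3%.

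XTH was read by 1 probe set, which has no suffix for cross-hybridisation. Its log2 values were 7.61, 7.32 and 7.38 at 13 °C, against 10.01, 10.21 and 10.17 at 28 °C. The arrays of each temperature lay close together, and the gap between the highest array at 13 °C and the lowest at 28 °C was 2.40. XTH averaged 7.44 ± 0.15 at 13 °C and 10.13 ± 0.11 at 28 °C (SD, n = 3 each). The difference, taken as 13 °C minus 28 °C here and below, was -2.69 ± 0.11 (SE). Both levels were well above 4.71, the highest mean among 23 control probe sets for transcripts that were not added to the samples, which serves here as a guide to background.

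GLU1A had the largest difference of the 3 genes. On the probe set that the annotation pairs with it, the log2 values were 5.32, 4.61 and 4.61 at 13 °C, against 11.91, 11.08 and 11.50 at 28 °C. At 13 °C 2 of the 3 arrays were below the background guide of 4.71 and the other was a little above it, so the GLU1A signal there could hardly be told from background, while at 28 °C it was bright on every array. GLU1A averaged 4.84 ± 0.41 at 13 °C and 11.50 ± 0.42 at 28 °C (SD, n = 3 each), a difference of -6.65 ± 0.24 (SE). With the arrays below 4.71 set to that level, the difference was -6.59, an estimate of 96.2-fold lower signal at 13 °C. This fold depends on the level taken as background and on the arrays used, and is not a firm minimum.

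The other probe set of that cluster gave a different picture. This set, called the shared set here, had log2 values of 9.95, 10.40 and 10.54 at 13 °C, against 11.06, 10.90 and 11.00 at 28 °C. It was bright at both temperatures, and the groups lay only 0.35 apart. It averaged 10.30 ± 0.31 at 13 °C and 10.99 ± 0.09 at 28 °C (SD, n = 3 each), a difference of -0.69 ± 0.15 (SE). Without arrays 1 and 2 at 13 °C, whose control probe sets stood apart, the 1 array left there gave -0.44. The suffix _s_at marks a set whose probes match several transcripts, and the annotation pairs it with no gene here. RefSeq's genes of the Chinese Spring assembly, used for names, include 4 genes of this family, GLU1A to GLU1D, of which GLU1A was the 1 gene paired with a probe set. Which of them the shared probe set reads was not tested.

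The change between the probe sets was seen on each array. The annotated set minus the shared set was -4.63, -5.79 and -5.93 at 13 °C, against 0.85, 0.18 and 0.49 at 28 °C. All arrays at 13 °C lay below all arrays at 28 °C in this value. The annotated set was chosen by its own difference, so this separation followed from the choice and supports nothing. The annotated minus the shared set averaged -5.45 ± 0.71 at 13 °C and 0.51 ± 0.33 at 28 °C (SD, n = 3 each). Being a difference within an array, it is the same under any scaling of whole arrays. The probes of the 2 sets differ in affinity, so only its change between the temperatures can be read, not its size or sign at either, and that change is limited by the background level of the annotated set at 13 °C.

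The proton pump gene ha1 was read by 3 probe sets, and they gave closely similar differences. The set with no cross-hybridisation suffix had log2 values of 9.79, 9.73 and 9.74 at 13 °C, against 10.49, 10.30 and 10.24 at 28 °C. The groups were 0.45 apart, and the arrays at 13 °C were nearly identical. It averaged 9.75 ± 0.03 at 13 °C and 10.34 ± 0.13 at 28 °C (SD, n = 3 each), a difference of -0.59 ± 0.09 (SE).

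A second set of the same cluster, with the suffix _x_at, had log2 values of 10.26, 10.10 and 10.10 at 13 °C, against 10.76, 10.64 and 10.59 at 28 °C. Its difference of -0.51 ± 0.09 (SE) was the smallest of the ha1 probe sets. The last, an _x_at set of another cluster with the prefix TaAffx, had log2 values of 10.09, 10.07 and 10.03 at 13 °C, against 10.80, 10.53 and 10.70 at 28 °C, and differed by -0.62 ± 0.09 (SE). Neither pair of groups overlapped. The suffix _x_at marks sets with probes that are also found in other transcripts, so both may include signal from further H+-ATPase genes, and the annotation lists no other gene of that name.

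Averaged over its 3 probe sets, ha1 stood at 10.05, 9.97 and 9.96 at 13 °C, against 10.68, 10.49 and 10.51 at 28 °C. The mean was 9.99 ± 0.05 at 13 °C and 10.56 ± 0.11 at 28 °C (SD, n = 3 each), a difference of -0.57. The probe sets read the same RNA on the same arrays and are not replicates of the temperatures.

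**Figure D1:**
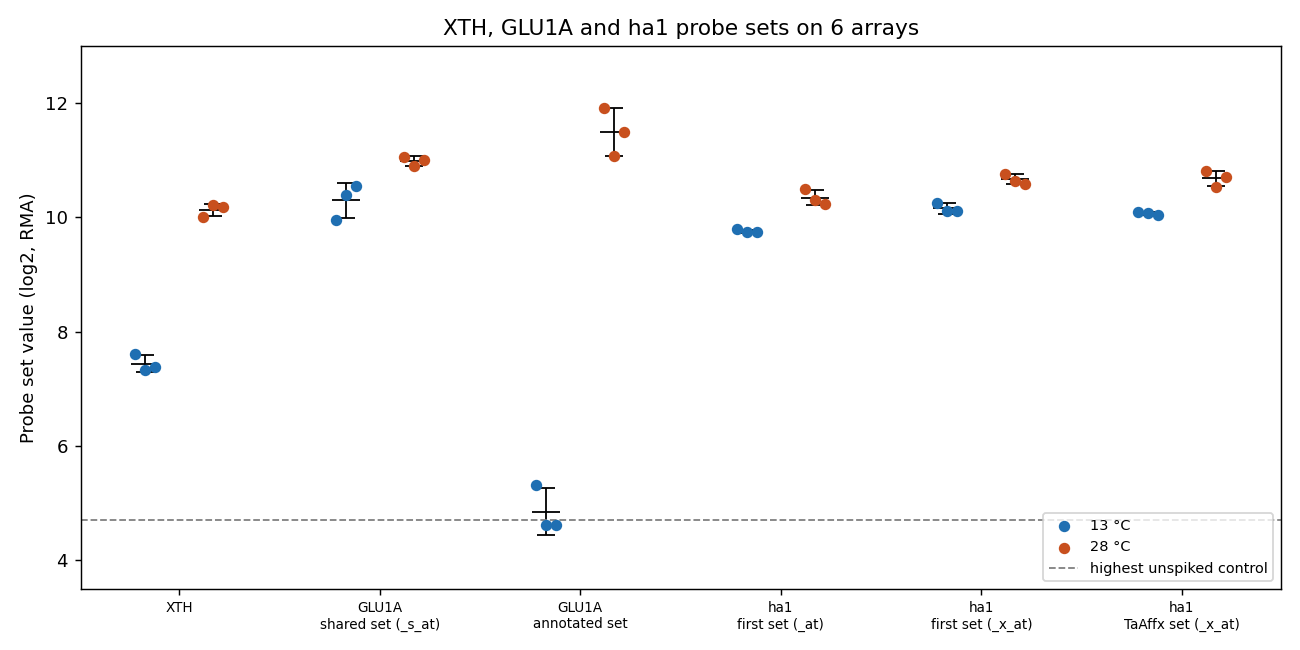
Log2 RMA values (y axis) of the 6 probe sets of XTH, GLU1A and ha1 (x axis), with 13 °C to the left of 28 °C in each pair. Points are arrays, bars the mean ± SD of 3 arrays, and the dashed line is the highest unspiked control at 4.71. The annotated GLU1A set lies at that line at 13 °C and near 11.50 at 28 °C, while the 3 ha1 probe sets differ by 0.51 to 0.62.

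Set among all tested probe sets, the genes lay at different places in the lower tail. The annotated GLU1A set lay near the lowest end, where its place is uncertain because its signal at 13 °C was at background. For XTH 572 probe sets (0.935%) lay lower, and for the ha1 probe sets 9.72% to 11.5% did. The shared probe set of the GLU1A cluster had 8.70% below it. Among the 200 probe sets with an informative gene name, XTH was 18th from the lowest end, and the ha1 probe sets were 43rd, 44th and 51st.

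**Figure D2:**
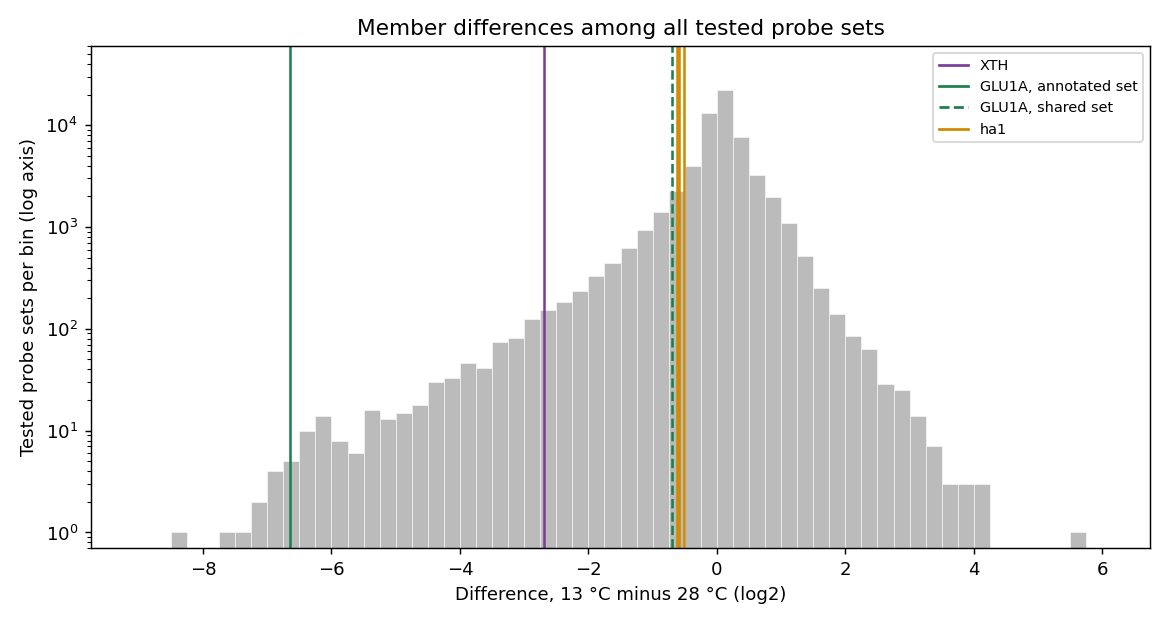
Number of tested probe sets (y axis, log scale) by their log2 difference, 13 °C minus 28 °C (x axis, bins of 0.25), with vertical lines at the 6 members. GLU1A at -6.65 lies at the far lower end and XTH at -2.69 in the lower tail, whereas the ha1 lines and the dashed line of the shared set lie at the flank of the main peak.

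All 6 probe sets were past the threshold of limma's moderated test with Benjamini-Hochberg adjustment over all probe sets, in the lower direction. Among all tested probe sets, 15.1% were past it and lower at 13 °C, 18.5% were past it and higher, and 33.5% were past it in either direction. At least 2-fold lower signals were found for 2 of the 6, XTH and the annotated GLU1A probe set, and for 5.62% of all probe sets with the test passed as well, where 9.29% passed with a difference of at least 2-fold in either direction. The median difference was -0.65 over the 6 members and 0.062 over all tested probe sets. The choice of the members by this contrast fixed their count in advance, so nothing is read from it.

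The size of the ha1 difference depended on how the arrays were scaled. The authors' quantile normalization gives all arrays the same distribution, so each difference is measured against the rest of the array, and the total amount of mRNA in an embryo is not measured. Fewer cells of a kind and less RNA per cell cannot be told apart either. Scaled to the hybridisation controls, bacterial and phage transcripts added before hybridisation, ha1 on its set without suffix differed by -1.22 ± 0.33 (SE), and XTH by -3.32 ± 0.33 (SE). The same shift applied to all genes: the median difference of all probe sets became -0.56, and 5.25% of the calls over the table were higher at 13 °C, compared with 55.1% in the deposited values. With scaling to the poly-A controls, added to the RNA at the start, 6.63% of the calls were higher. There the SE of each difference grew to 0.54, about as large as the ha1 differences in the deposited values. Under each control scaling all listed probe sets had the same SE, and the array shift was common to all. Calls and p-values under these scalings, here and below, therefore do not measure evidence for single genes.

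**Figure D3:**
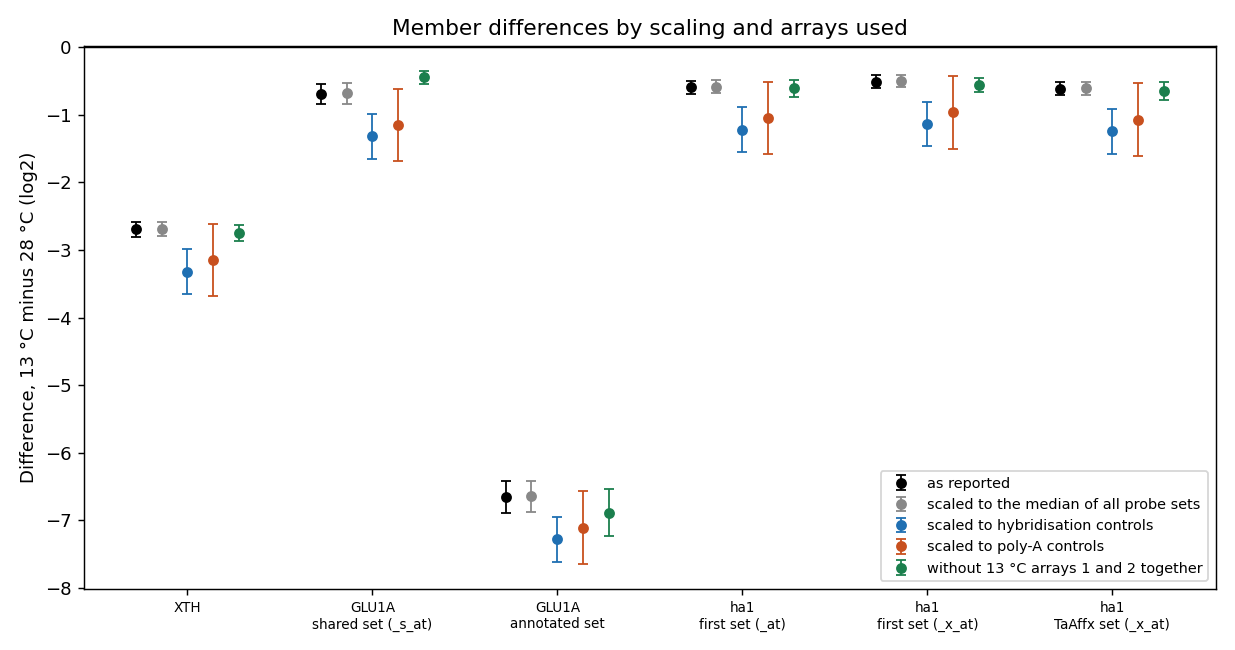
Log2 difference, 13 °C minus 28 °C (y axis), of each of the 6 probe sets (x axis) as deposited, under 3 other scalings and without arrays 1 and 2 at 13 °C, with bars of 1 SE. Every point is below 0, the direction by which the members were chosen. Scaling to the hybridisation controls moves all members down by the same amount, for the ha1 set without suffix to -1.22, compared with -0.59 as deposited.

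The arrays' control probe sets also differed between the temperatures. Hybridisation controls averaged 12.07, 11.07 and 11.45 at 13 °C, against 10.89, 10.78 and 11.04 at 28 °C, a difference of 0.63 (exact two-sided permutation p = 0.1, the smallest that 3 arrays against 3 allow). Poly-A controls differed by 0.46 (exact permutation p = 0.5), with arrays 1 and 2 at 13 °C the highest and the lowest of all, at 9.57 and 7.82. The excess of 3-prime over 5-prime signal of a transcript can reflect RNA length, but what set it here was not tested. For sucrose synthase it was 0.84 wider at 13 °C, and for glucose-6-phosphate dehydrogenase 0.90 wider (exact permutation p = 0.1 each). Array 2 had the widest gap at 13 °C for both transcripts. The part of these control differences in the member differences was not tested. With only array 3 left at 13 °C, the annotated GLU1A set differed by -6.89, XTH by -2.75 and the ha1 probe sets by -0.56 to -0.65, close to the values from all arrays.

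The 3 genes also differed in how far their replicate arrays spread. The genes were chosen with the fitted contrast known, and its SE uses this spread, so the spread is only described. The comparison with all probe sets was not matched for brightness. The pooled SD between arrays of one temperature was 0.41 for the annotated GLU1A set, larger than that of 99.1% of all tested probe sets. It was 0.23 for the shared set, larger than 87.9%. XTH, at 0.13, was in the middle of the array, with 50.0% of probe sets below it. The ha1 probe sets were among the steadier ones, at 0.090 to 0.098, with 23.3% to 28.6% of probe sets below them.

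On the annotated GLU1A set arrays of both temperatures deviated from their means, at 13 °C in a signal near background. Array 1 at 13 °C was 0.47 above the mean of its temperature on the annotated set, and its hybridisation controls were 0.54 above theirs. On the shared set the same array was 0.35 below the mean, so the probe sets of the cluster deviated in opposite directions there. At 28 °C, array 1 was 0.42 above and array 2 was 0.42 below the mean on the annotated set, compared with 0.08 above and 0.09 below on the shared one. XTH deviated by at most 0.17 on any array and ha1 by at most 0.15.

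**Figure D4:**
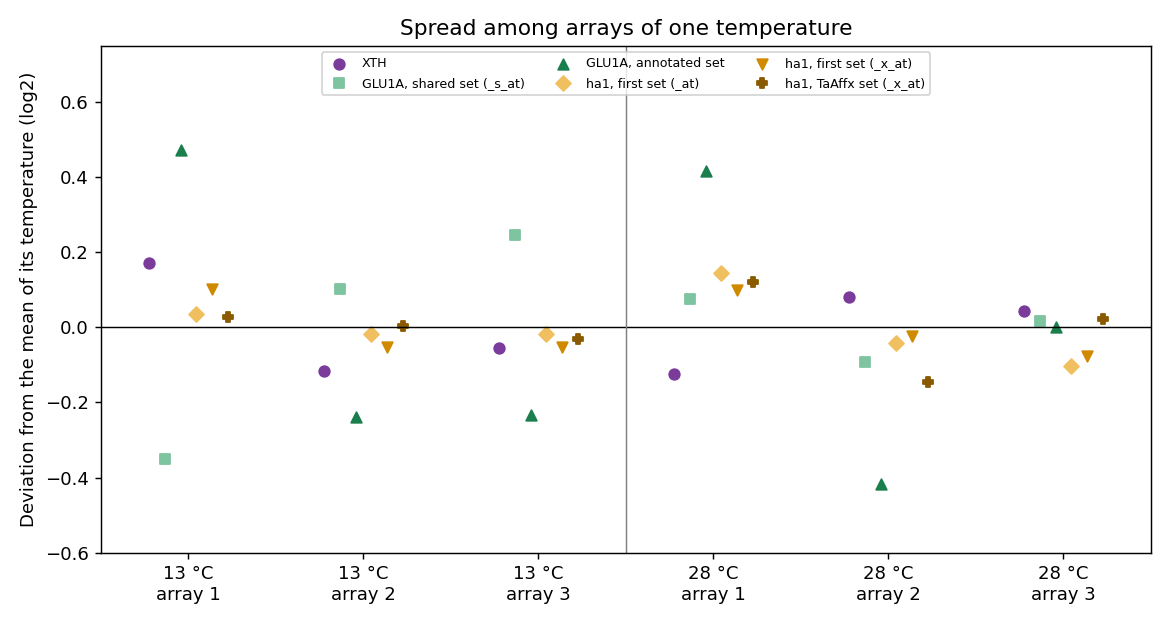
Deviation of each array from the mean of its temperature (y axis, log2) for the 6 probe sets, by array (x axis, 13 °C to the left of 28 °C). The annotated GLU1A set spreads most, with array 1 at 13 °C at 0.47 and array 2 at 28 °C at -0.42, and the shared set lies at -0.35 on array 1 at 13 °C.

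Each gene was also set beside the named genes with the most similar profile. Profiles over the 6 arrays were centred on their own mean and compared by root mean square distance with 195 other named probe sets, and such a likeness rests mostly on the temperature difference. Nearest to XTH were a probe set of wcH2B-6, a histone H2B gene, at a distance of 0.15, and one of SAHH, S-adenosylhomocysteine hydrolase, at 0.17, which differed by -2.80 and -2.77. A probe set of the histone gene wcH2B-8 came next, at 0.24.

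Nearest to GLU1A were likewise histone probe sets, of wcH2B-8 and H2A-9, both at a distance of 0.45, and of H2A-2 at 0.89. The wcH2B-8 probe set here differed by -6.11 and is not the one named beside XTH, which differed by -2.77. Like GLU1A, the wcH2B-8 probe set at -6.11 was near background at 13 °C, with 4.70 ± 0.31 against 10.81 ± 0.31 at 28 °C (SD, n = 3 each). H2A-2 was at 4.09 at 13 °C, against 9.11 at 28 °C. Nearest to ha1 were probe sets named TSA, at 0.060, la-17, at 0.081, and TUBA, an alpha-tubulin, at 0.083. TUBA differed by -0.50 and TSA by -0.58, and the distances are small in part because the differences are.

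Few other genes of wall remodelling, glucoside metabolism or membrane transport carried a name on this array. The lists of such genes were set with earlier results of these data known, so their p-values do not come from a blind choice. The list for cell wall enzymes and that for glucoside formation and cleavage held 0 named probe sets beside the members. The list for pumps and transport held 1, of ALMT1, a malate transporter known for aluminium-activated malate release from wheat root tips, and it rose. Its log2 values were 6.79, 6.36 and 5.64 at 13 °C, against 4.83, 4.62 and 4.46 at 28 °C. All arrays at 13 °C were above all at 28 °C, where 2 of the 3 were below the background guide. The difference was 1.62 ± 0.25 (SE; limma, adjusted p = 0.0009 over all probe sets), or 1.52 with the arrays below that guide set to it, the opposite direction to ha1. It was 0.997 without arrays 1 and 2 at 13 °C (adjusted p = 0.025, with the 1 array left there assumed to vary like those at 28 °C), and with scaling to the poly-A controls it did not pass, at 1.17 (adjusted p = 0.32).

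Another 2 genes were added to the lists at a later step, also after the data had been seen, and neither passed in the deposited values. TPC1, a 2-pore cation channel, had 7.01, 7.63 and 7.77 at 13 °C, against 8.07, 7.76 and 8.01 at 28 °C on the log2 scale. Its groups overlapped slightly, and the difference of -0.48 ± 0.19 (SE) had an adjusted p = 0.085 in limma. For Glc1 the brighter of 2 probe sets stood at 7.14, 8.04 and 7.79 at 13 °C, against 8.04, 7.78 and 7.93 at 28 °C, a difference of -0.26 ± 0.20 (SE; limma, adjusted p = 0.39). With scaling to the hybridisation controls both were past the threshold as lower, TPC1 at -1.10 and Glc1 at -0.89. Both had the SE of 0.33 that this scaling gave every listed probe set, so this is not evidence for either gene alone. TPC1 also passed without array 3 at 13 °C, at -0.63 (limma, adjusted p = 0.047). The other Glc1 probe set was below the background guide on all arrays.

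Markers of the starchy endosperm were mostly below the background guide. Of 18 such probe sets (gliadins, glutenins, purothionins and starch enzymes) 4 were above it in either group, and 0 passed limma's test. Over all tested probe sets 33.5% passed it. Of the 18, 1 had an unadjusted p under 0.05 in limma. The best measured of them, AGP-S, a small subunit of ADP-glucose pyrophosphorylase, differed by 0.12. The summed linear signal of the 18, most of it from AGP-S, was 1752 to 1944 at 13 °C and 1694 to 1754 at 28 °C. Of 3 probe sets matched by name to the aleurone list, 1 of PER1 rose, 1 of amy1 fell with both groups below the guide, and 1 did not pass. The amy1 gene is also named BMY1, and whether it marks the aleurone was not tested. Under poly-A scaling 0 of the 3 probe sets of the aleurone list passed in limma, with 2 at an unadjusted p under 0.05. All 18 endosperm differences were negative under both control scalings, where 0 passed in limma, with 5 at an unadjusted p under 0.05 for the hybridisation and 0 for the poly-A controls. All 10 probe sets of the embryo markers Em, LEA1, WGA2 and Rab15 were above the guide, and several of them read the same gene. Of the 10, 8 passed as higher at 13 °C, where 18.5% of all tested probe sets did. The summed linear signal of the 10, 53312 to 74534 at 13 °C, lay above the 14170 to 21117 at 28 °C. With scaling to the hybridisation controls 5 of the 10 were past the threshold, all higher, and 1 of the others turned negative, and with the poly-A controls 5 were past it. Most of the summed embryo marker signal came from the Em probe sets, and whether it follows the amount of embryo tissue was not tested. The part of the embryo marker change in the member differences was not tested either.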

How the data were processed

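The series matrix holds log2 probe set values that the authors made with RMA, per the submitters' processing notes, which give no version, software or set of arrays normalized together. RMA subtracts background, equalises the distributions of the arrays and summarises each probe set. The values carry no detection call and the number of arrays limits their precision. Of 61290 probe sets 111 controls were left out. The platform's annotation of 2007 paired 1273 tested probe sets with 1 gene, 0 with several and 59906 with none here; 200 had an informative name once identifiers were matched to RefSeq, which was used for names. No sequences or positions were used here.

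Differences were fitted with limma 3.58.1 in R 4.3.3 (lmFit, eBayes, 6 arrays, no covariate, two-sided), adjusted by Benjamini-Hochberg over 61179 probe sets at 0.05. The fit was checked on simulated data with few changed probe sets and independent noise drawn from the fitted spread. Such a check cannot show how errors shared by whole arrays affect the fit. Python 3.11.15, numpy 2.4.6, scipy 1.17.1, pandas 2.3.3 and matplotlib 3.10.9 made tables, exact tests and figures. The members and lists were chosen with earlier results of these data known. Named genes were all members, other members of the lists (up to 4 past the threshold, or the 2 with the smallest p), other probe sets of the members' clusters, and for each gene the 3 most similar named genes. Alternatives were other scalings, variance priors, filters, a replicate block and arrays left out; omitting arrays 1 and 2 at 13 °C together, and adding TPC1 and Glc1, were chosen after seeing the data.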

Additional observations from a re-analysis of the deposited data

How the results depend on the processing

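All 6 differences stayed negative under every alternative run, but the members were chosen as lower at 13 °C, so the sign supports nothing. The replicate block, the variance prior and the filter on brightness leave each difference as it was. Both control scalings move all 6 down alike. Scaling to the hybridisation controls gave -3.32 for XTH, -7.28 for the annotated and -1.32 for the shared set of GLU1A, and -1.22, -1.14 and -1.24 for the ha1 set without suffix, its _x_at partner and the TaAffx set. Scaling to the poly-A controls gave, in the same order, -3.15, -7.11, -1.15, -1.05, -0.96 and -1.07. Both follow from the shift of the controls, which depended on single arrays at 13 °C in opposite directions. Without array 1 there it fell to 0.36 for the hybridisation and 0.060 for the poly-A controls. Without array 2 there it rose to 0.86 for the hybridisation and 0.93 for the poly-A controls. Leaving out arrays 1 and 2 at 13 °C moved the shared set to -0.44; the cause was not tested. Leaving out single arrays gave -2.78 to -2.64 for XTH, -6.89 to -6.44 and -0.82 to -0.52 for the GLU1A probe sets, and -0.69 to -0.46 over those of ha1.

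Of all tested probe sets, 20517 passed, compared with 12469 and 3002 under the hybridisation and poly-A scalings and 5685 that also differed at least 2-fold. Of the 1 other gene of the lists, 0 passed under poly-A scaling. The replicate block gave 20226 and left the member differences as they were; same-numbered arrays deviated together only weakly (correlations of 0.044, 0.012 and 0.019), and array 1 at 13 °C correlated best with array 3 at 28 °C (0.059), so the numbers were not taken as pairs. RMA values give no depth, and GLU1A at 13 °C was limited by background.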
